A study of Drosophila melanogaster with 3 samples.

Results

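The Antennapedia complex is one of the fly's clusters of Hox genes, on chromosome arm 3R of Drosophila melanogaster. Peaks of the transcription factor Grainy head (Grh) were taken here from the part of 3R whose interval starts run from 2480000 to 2830000 in the dm3 genome build, a stretch of 350 kb that was set for holding lab, pb, zen, Dfd, Scr, ftz and Antp. It held 43 of the 12158 peaks obtained with a rabbit anti-Grh antibody and 8 of the 1638 peaks obtained with a mouse anti-Grh antibody, 51 of 13796 in all. The peaks were chosen by position, with earlier results of these data known.

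Binding was mapped by chromatin immunoprecipitation and sequencing (ChIP-seq) in whole w1118 embryos collected at 13 to 16 h and fixed with 1.8% formaldehyde. The 3 libraries were made with the mouse antibody, the rabbit antibody and rabbit IgG, 1 library each, and the IgG library was not analysed here. No value below therefore has a replicate error, and read depths are unknown. Each peak carries a score that the authors gave it, whose unit is not stated, so scores were compared only within a list. Whole embryos mix all cell types, so a place bound in few cells and one bound weakly in many cannot be told apart.

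Hox genes encode homeodomain transcription factors that give the segments along the head-to-tail axis their identity. Within the complex, lab acts in the head and midgut, pb in the mouthparts, Dfd in the mandibular and maxillary segments, Scr in the labial segment and prothorax, and Antp in the thorax. Other homeobox genes of the complex do not give segments their identity: zen patterns dorsal tissue and the extraembryonic membrane, bcd is the maternal determinant of the anterior end, and ftz is a pair-rule segmentation gene. Grh is a transcription factor of epithelia, including the epidermis and trachea, where it acts in making and repairing the cuticle.

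In the RefSeq gene table of the Release 6 assembly, all 18 genes listed for the complex were found on 3R. The list is partial, as that table held 43 genes from lab to Antp, 19 of them protein coding. The order of the 18 began with lab, followed by 8 cuticle protein genes, namely Edg84A and Ccp84Ag, Ccp84Af, Ccp84Ae, Ccp84Ad, Ccp84Ac, Ccp84Ab and Ccp84Aa. It went on with pb, zen2, zen, bcd, Ama (a secreted protein of the immunoglobulin family), Dfd, Scr, ftz and Antp. The cuticle genes thus sit between lab and pb, within the Hox cluster. That table is of another build than the peaks and no dm3 annotation or sequence was used here, so no peak was assigned to a gene, an exon or an intron.

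In number of Grh peaks the complex was close to the rest of its arm, but its rabbit peaks had high scores. The rabbit antibody gave 12.3 peaks per 100 kb in the complex and 10.7 over the rest of 3R, and the mouse antibody 2.29 and 1.60. The median rabbit score was 13.6 in the complex (quartiles 6.04 and 26.9, 43 peaks; order-statistic 95% interval of the median 7.34 to 17.6) and 6.0 over the rest of 3R (quartiles 3.93 and 10.5, 2956 peaks). Of the 43 rabbit peaks, 33 scored above the median of the whole rabbit list, 5.98, and 10 below it. The median mouse score was 6.46 in the complex (8 peaks, from 3.12 to 16.5) and 5.30 over the rest of 3R (440 peaks); the interval of the former is as wide as the range of its 8 peaks.

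**Figure D1:**
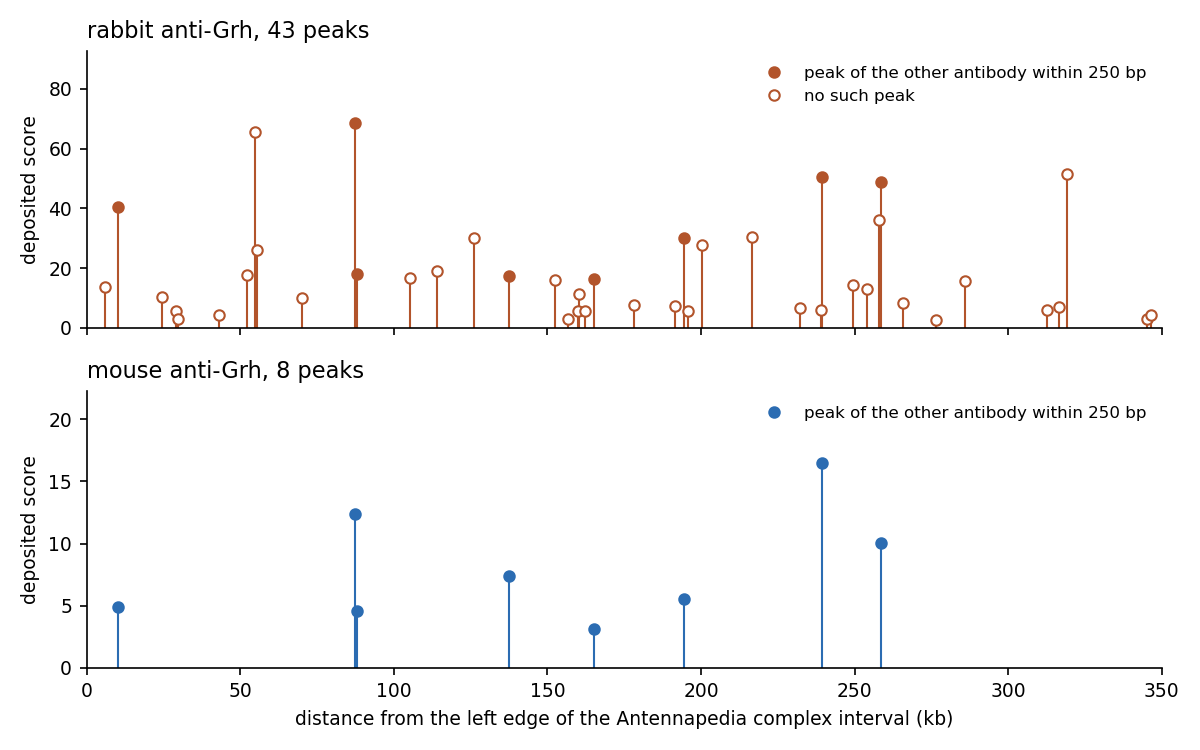
Deposited score (vertical axis, unit not stated) of each rabbit peak (upper panel, 43 peaks) and mouse peak (lower panel, 8 peaks) against distance in kb from the left edge of the 350 kb interval. Filled points have a peak of the other antibody within 250 bp: all 8 mouse peaks do, and 8 of the 43 rabbit peaks, while the rabbit peaks scoring 65.4 and 51.6 do not.

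All positions below are on 3R in dm3 and give the first base of the deposited interval of 2 bp, counted from 1. Each of the 8 mouse peaks had a rabbit peak within 250 bp (exact 95% binomial interval of the share 63.1 to 100%), against 99% over the whole mouse list. From the left, the mouse peak at 2490344 had a score of 4.88 and its rabbit partner, 2 bp away, a score of 40.5. The next, at 2567487, scored 12.4, and its partner 12 bp away scored 68.7, the highest rabbit value of the complex. Beside it, the mouse peak at 2567904 had a score of 4.6 and its partner, 10 bp away, a score of 18.1. These last 2 mouse peaks lay 417 bp apart, and the rabbit list split the place in the same way, with peaks 419 bp apart.

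The mouse peak at 2617481, with a score of 7.41, lay 122 bp from a rabbit peak scoring 17.3, the widest offset of the 8 pairs. The peak at 2645129 had the lowest mouse score of the complex, 3.12, and a partner at 13 bp with the lowest matched rabbit score, 16.3. The mouse peak at 2674470 scored 5.51 and its partner, 19 bp away, 30.1. Both lists thus ranked the pair at 2645129 last among the 8. The mouse peak at 2719425 had the highest mouse score of the complex, 16.5, which was number 10 of 1638 in order of score, and its partner 1 bp away scored 50.5. The last, at 2738671, scored 10.1 and its partner, 33 bp away, 48.9. No mouse peak was found over the remaining 91.3 kb to the right edge.

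The median distance within the 8 pairs was 12.5 bp (1 to 122 bp), against 11 bp over the other 423 pairs of 3R. Pairs with higher mouse scores tended to have higher rabbit scores, with a Spearman rho of 0.81 and, for logged scores, a Pearson r of 0.75 over the 8 pairs, beside 0.68 and 0.67 over the other 423. These are descriptions over places from the same 2 libraries, with no test. The rabbit members of the pairs scored from 16.3 to 68.7 with a median of 35.3, beside a median of 16.7 for the rabbit members of the other pairs on 3R.

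**Figure D2:**
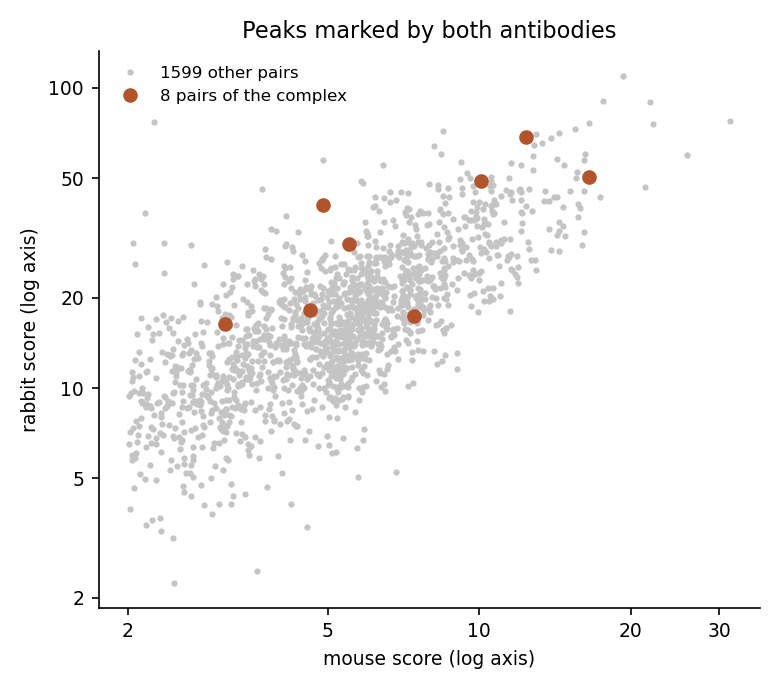
Mouse score (horizontal, log axis) against rabbit score (vertical, log axis) for peaks of the 2 lists that are each other's nearest within 250 bp, as points for the 8 pairs of the complex (large) and all other pairs (small). The pairs of the complex lie within the cloud, from 3.12 (mouse) with 16.3 (rabbit) to 16.5 with 50.5.

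Of the rabbit peaks in the complex, 8 of 43, or 18.6% (exact 95% binomial interval 8.39 to 33.4%), had a mouse peak within 250 bp. The share was 14.4% over the whole rabbit list and 15.5% (14.2 to 16.8%) over the rest of 3R, both within that interval. The other 35 rabbit peaks lay between 394 and 87825 bp from the nearest mouse peak, with a median of 14059 bp, against 16556 bp for the 2499 unmatched peaks over the rest of 3R. Within 1 kb of a mouse peak were 2 of the 35, at 2719031 and 2738082, and 243 of the 2499.

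The high scores were found among rabbit peaks with and without a mouse partner. The 8 matched rabbit peaks had a median score of 35.3, against 16.0 for the 457 matched peaks over the rest of 3R. The 35 unmatched ones had a median of 9.999 (quartiles 5.72 and 17.1), against 5.43 (quartiles 3.58 and 8.08) for 2499 unmatched peaks over the rest of 3R. The lowest matched score of the complex, 16.3, was just above the median of those 457 matched peaks, 16.0. It was below the median of 16.7 for the rabbit members of the 423 other pairs on 3R. That set is narrower, as it takes only peaks that are each other's nearest, as all 8 of the complex are.

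**Figure D3:**
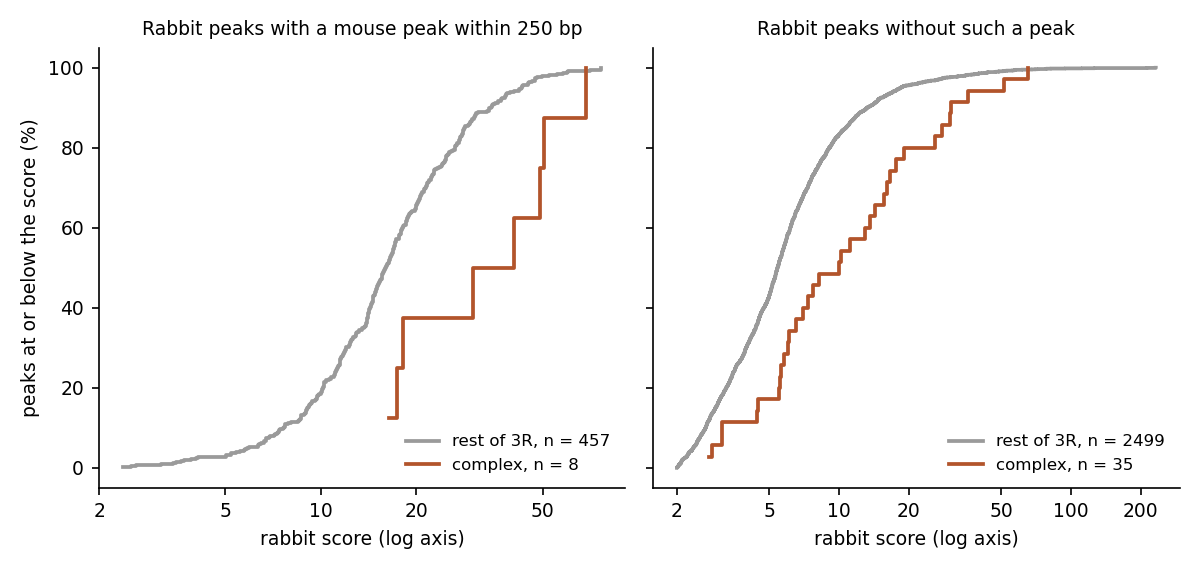
Cumulative share of rabbit peaks (vertical axis, percent) at or below each score (horizontal, log axis), with a mouse peak within 250 bp (left) and without (right), for the complex and for the rest of 3R. In both panels the curve of the complex lies to the right of that of the rest of 3R over most of its course, with medians of 35.3 against 16.0 and of 9.999 against 5.43.

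Peaks in the upper 10% of the whole rabbit list by score made up 13 of the 43 rabbit peaks of the complex, or 30.2% (exact 95% binomial interval 17.2 to 46.1%). By construction the share is 9.99% over the whole list; it was 10.4% (9.28 to 11.5%) over the rest of 3R, where 306 of 2956 peaks were in that part. Just inside that limit was the peak at 2594173, with a score of 19.1, and just outside it the matched peak at 2567894, with 18.1. In the mouse list, 3 of 8 peaks were in the upper 10%, or 37.5% (8.52 to 75.5%), beside 9.95% of the list. Neighbouring peaks are not independent, so these intervals cover counting error only.

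Of those 13 rabbit peaks, 5 had a mouse peak within 250 bp, or 38.5% (exact 95% binomial interval 13.9 to 68.4%). The share was 56.3% over the whole list and 58.5% (52.8 to 64.1%) over the rest of 3R, so 13 peaks do not resolve a difference. The 10 highest-scoring rabbit peaks of the complex were divided evenly. The 5 with a mouse partner were those at 2567475 (score 68.7), 2719426 (50.5), 2738638 (48.9), 2490342 (40.5) and 2674451 (30.1).

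The 5 highest-scoring rabbit peaks without a mouse partner had scores in the same range. The peak at 2534776 scored 65.4, order 65 in the list of 12158, with 32711 bp to its closest mouse peak. Elsewhere on 3R, 11 unmatched rabbit peaks scored as high. The peak at 2799182 scored 51.6 and was 60511 bp from a mouse peak, in the stretch at the right end where no mouse peak was found. The peak at 2738082, with a score of 36.1, stood 556 bp from the rabbit peak paired with the mouse peak at 2738671, and 589 bp from that mouse peak. The remaining 2 were at 2696744 (score 30.3) and 2605973 (score 30.2), 22274 and 11508 bp from a mouse peak.

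From the left edge, the first 50 kb held 6 rabbit peaks. They were at 2485850 (score 13.6), 2490342 (40.5), 2504403 (10.2), 2509086 (5.59), 2509582 (3.14) and 2523204 (4.44). One of them, at 2490342, had a mouse partner and was the only one of this stretch in the upper 10% of the list. The next 50 kb also held 6, at 2532253 (17.6), 2534776 (65.4), 2535579 (26.0), 2549971 (9.999), 2567475 (68.7) and 2567894 (18.1). Their median, 22.1, was the highest of the 7 stretches of 50 kb, and the 2 highest-scoring rabbit peaks of the complex lay here, 1 with a mouse partner and 1 without.

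The third stretch had the fewest rabbit peaks, 4, at 2585417 (16.6), 2594173 (19.1), 2605973 (30.2) and 2617359 (17.3). None of these scored under 16.6. The fourth had the most, 10, at 2632537 (16.1), 2636578 (3.14), 2639934 (5.81), 2640145 (11.2), 2642152 (5.63), 2645116 (16.3), 2658294 (7.71), 2671487 (7.34), 2674451 (30.1) and 2675814 (5.52). Their median was 7.52, and only the last stretch had a lower one. It held 2 mouse peaks, those scoring 3.12 and 5.51.

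The fifth stretch held 6 rabbit peaks, at 2680171 (27.8), 2696744 (30.3), 2712128 (6.50), 2719031 (6.02), 2719426 (50.5) and 2729361 (14.3). The sixth held 6 as well, at 2733988 (12.9), 2738082 (36.1), 2738638 (48.9), 2745726 (8.18), 2756354 (2.75) and 2766057 (15.7). These stretches held the mouse peaks with the highest and third-highest scores of the complex, 16.5 and 10.1. The last 50 kb held 5 rabbit peaks, at 2792600 (6.06), 2796471 (7.03), 2799182 (51.6), 2825277 (2.85) and 2826496 (4.47), and no mouse peak. Apart from the peak at 2799182, its scores were at most 7.03.

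A smaller share of neighbouring rabbit peaks lay close together in the complex than over the arm as a whole, as a description with no test. This was so although the complex held more rabbit peaks per 100 kb. The median gap was 5793 bp in the complex and 2985.5 bp over 3R. Of 42 gaps in the complex, 6 were at most 1 kb, or 14.3%, against 31.7% of 2998 gaps on 3R. The longest stretches without a rabbit peak were 26.5 kb from 2766057, 26.1 kb from 2799182 and 17.5 kb from 2567894. Without a mouse peak, the longest after the right end were 77.1 kb from 2490344, which held 9 rabbit peaks, and 49.6 kb from 2567904, which held 4. Each count includes the rabbit partner of the mouse peak that closes the stretch, at 2567475 and 2617359 respectively.

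At the edges, the outermost rabbit peaks inside were at 2485850 (score 13.6) and 2826496 (4.47). The nearest outside were at 2472565 (14.1) and 2863289 (2.47). Each of these was the only rabbit peak within 50 kb beyond its edge, and neither 50 kb flank held a mouse peak.

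To place these values, every window of 350 kb on 3R starting at each 10 kb was counted, which gave 2755 windows. The values are descriptions with no p, since windows overlap. In number of peaks, with all scores counted, the complex was ordinary: 63.9% of windows had fewer than its 43 rabbit peaks (median 37, quartiles 27 and 47, range 5 to 92). For the mouse list, 72.5% had fewer than its 8 peaks (median 5, quartiles 3 and 8, range 0 to 17). With neighbours chained at gaps of up to 1 kb and counted once, the complex held 37 rabbit groups and 87.3% of windows held fewer. With only the upper 50% of the rabbit list by score, it held 33 rabbit peaks and 94.0% of windows held fewer.

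In rabbit score it stood at the upper end of the arm. In mouse score it stood less high: 334 of 2560 windows with mouse peaks apart from the complex had a median above its 6.46, which rests on 8 peaks. None of the 2684 windows that lay wholly apart from the complex had a median rabbit score above 13.6. The median window had 6.13 (quartiles 5.48 and 6.88), and the highest apart from the complex had 11.9, from only 12 rabbit peaks between 7820001 and 8170000. Over the 5 major arms, 37 of 11509 windows apart from the complex had a higher median, all of them with 1 to 15 rabbit peaks. Of the 9481 such windows with at least 22 rabbit peaks, a minimum chosen after the values were seen, 0 had a higher median, and the highest, on 2L, reached 11.9.

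In the number of upper 10% peaks, 98.8% of the windows of 3R had fewer than the 13 of the complex (median 4, quartiles 2 and 5). The windows with more were 20, all within 12320001 to 12890000, where 14 to 17 such peaks stood among 54 to 73 rabbit peaks. The bithorax complex, the fly's other Hox cluster, is on the same arm. Which genes those 20 windows hold was not looked up. Over the 5 major arms, 42 of 11614 windows apart from the complex had more than 13 such peaks, those 20 included. A set of 79 windows that did not overlap each other was laid out from the edges of the complex. Among them, the complex had the highest median rabbit score and the most upper 10% peaks. Its first place in upper 10% peaks depends on that layout, since the 20 windows with more at 10 kb steps were not among the 79.

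**Figure D4:**
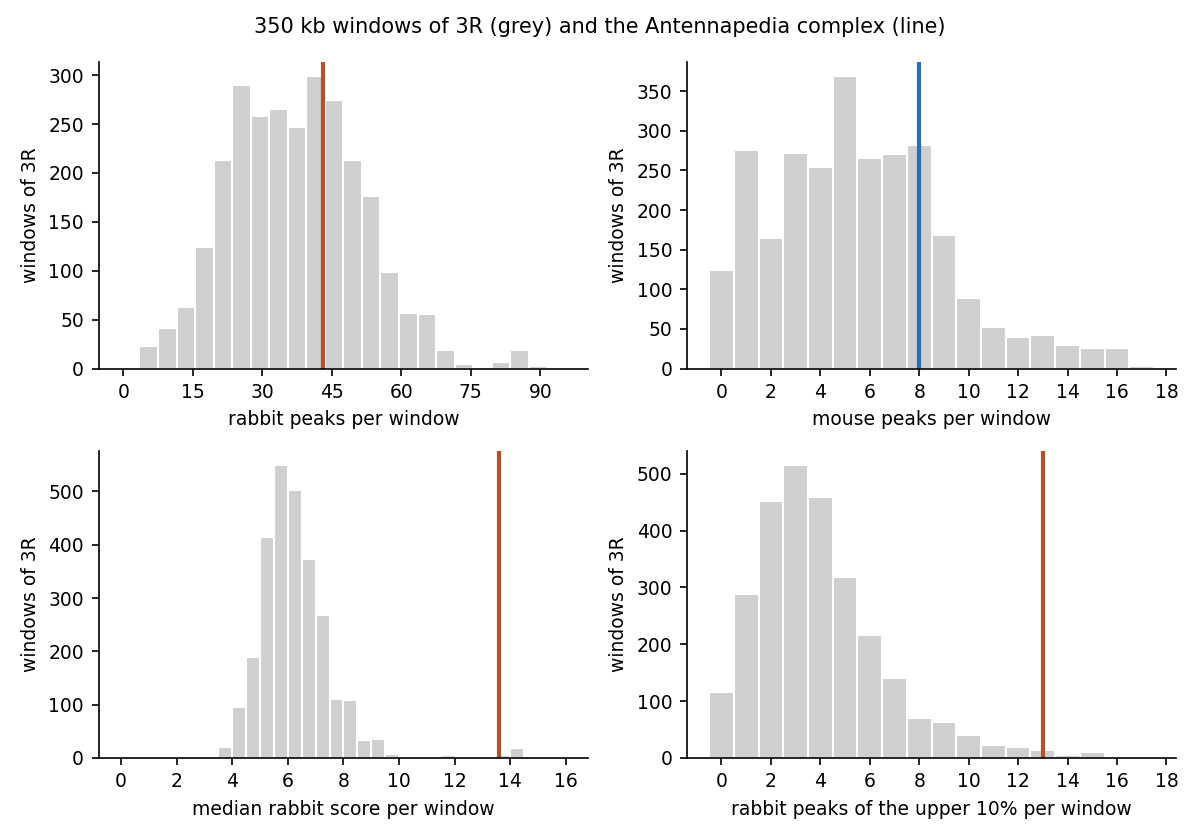
Number of 350 kb windows of 3R (vertical axis) by rabbit peaks, mouse peaks, median rabbit score and rabbit peaks in the upper 10% by score (horizontal axes), with a line at the value of the complex. The lines at 43 rabbit and 8 mouse peaks fall inside the bulk of windows, while those at a median score of 13.6 and at 13 upper 10% peaks fall in the right tail, where the few windows beyond the median score overlap the complex.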

How the data were processed

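Alignment to dm3 used Bowtie, per the submitters' processing notes; its version, how peaks were called and whether the IgG library entered are not stated. Each anti-Grh library has its own deposited list, not pooled, with a score per peak of unstated unit, and the lowest scores were 2.01 (mouse) and 1.996 (rabbit). A place was taken as matched where first bases lay within 250 bp. Arms were taken to end at their last peak.

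Shares carry exact 95% binomial (Clopper-Pearson) intervals, which cover counting error only. With 1 library per antibody no test was made. All windows at 10 kb steps were used in place of a random draw. The members and lists were chosen with earlier results of these data known. All peaks were accounted for; named singly by rule were the mouse peaks with their partners, the 10 highest-scoring rabbit peaks, the 5 highest without a partner and the longest empty stretches. Alternatives were other match distances, list cuts, window edges, window grids and chaining of neighbours at 1 kb. A planned promoter motif search was not run, as no sequence was used here. Counting steps were tested on simulated data. The tools were SciPy 1.17.1, NumPy 2.4.6, pandas 2.3.3 and matplotlib 3.10.9 under Python 3.11.15.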

Additional observations from a re-analysis of the deposited data

How the results depend on the processing

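Of 60 alternative values for 11 results, 49 stayed within the interval of the reported value or, for a count, within a factor of 1.5. For a place among windows, the interval was a binomial one over 79 windows. Some intervals are wide, that of the median mouse score being the range of its 8 peaks, so this is a loose measure. Settings for the upper 10% and for the place of the median score were chosen after seeing the data. With the upper 50% of each list by score, the complex held 5 mouse peaks, and 94.0% of windows had fewer rabbit and 81.9% fewer mouse peaks. With the rabbit list cut by score to as many peaks as the mouse list has, which keeps its highest scores by construction, 20 rabbit peaks were left, 99.3% of windows had fewer, 40% had a mouse partner and the median score was 28.9. With groups chained at 1 kb, 87.3% of windows had fewer rabbit groups. With 50 kb added at each side, where 2 rabbit and no mouse peaks lie, 42.2% of windows had fewer rabbit and 55.3% fewer mouse peaks, and with 50 kb removed at each side 82.5% had fewer mouse peaks. The place in number of rabbit peaks thus moved most with the cuts by score, and also with the wider edges and with chaining. The place of the median rabbit score, below which 98.98% of windows fell, ran from 98.3 to 99.8% over its alternatives. Those were chaining, other window edges, windows that did not overlap each other and windows of 5 arms. It was not computed for the cuts by score. No paired analysis was possible because there is 1 library per antibody, nor could a replicate be dropped. The mouse values rest on 8 peaks, and read depth is unknown.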

Other observations

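The deposited names carry a number whose basis is not stated, and by it the complex also stood high. Of the 43 rabbit peaks, 19 were among the first 10% of the rabbit list by number, or 44.2% (exact 95% binomial interval 29.1 to 60.1%), against 9.99% of the list by construction and 10.8% over the rest of 3R. The 10 highest-scoring rabbit peaks of the complex were all among these 19, so the share by number is not separate from that by score. Of the 8 mouse peaks, 4 were among the first 10% of the mouse list, or 50% (15.7 to 84.3%), against 9.95% of the list and 8.64% over the rest of 3R. All 8 rabbit peaks with a mouse partner were among the 19, beside 301 of 1756 such peaks over the whole list and 77 of 457 over the rest of 3R. The number and the score did not always go together: the mouse peak at 2617481 had number 10 and a score of 7.41, order 340 by score, while the peak at 2719425 had number 82 and order 10 by score.

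The names also carry a rank that several peaks can have in common. Among the rabbit peaks of the complex, 5 ranks were held in common. For 3 of them the peaks were neighbours within 1 kb, those at 2567475 and 2567894, at 2639934 and 2640145, and at 2719031 and 2719426. The other two joined distant peaks, at 2509582 and 2523204 (rank 10234) and at 2509086 and 2729361 (rank 4542). Over the whole rabbit list, 1900 ranks were held in common, and for 1371 of them neighbouring peaks with that rank were within 1 kb of each other. What a common rank means is not stated. The mouse peaks at 2567487 and 2567904 had different ranks, 33 and 244.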
